A study of Mus musculus with 6 samples.

Results

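N-linked glycans are sugar chains that most secreted and membrane proteins receive in the endoplasmic reticulum (ER), and the genes that build, transfer and reshape them were compared in the hearts of CKD and sham mice. The list held 49 genes of this pathway, written by name, and 46 of them had a named probe set among the 19505 genes measured. Dpm1, Alg10b and Mgat4b were not found among the named probe sets and were not analysed here. The CKD mice were male Balb/c mice, 8 weeks old at surgery, that had electrocoagulation covering 2/3 of the cortex of the right kidney and removal of the left kidney 2 weeks later, a surgical loss of renal mass known as 5/6 nephrectomy. The sham mice were Balb/c mice that had a laparotomy with both kidneys left alone. RNA of the heart of 3 mice in each group was hybridised to Affymetrix Clariom S arrays, 1 array per mouse, so the tissue held muscle and all other heart cells together. The methods describe sham and CKD sets kept for 8 and for 12 weeks and do not say which set gave these hearts.

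The chain is first built on the lipid dolichol, with the early sugars added on the cytosolic face of the ER and the later mannoses and glucoses on its luminal face. Oligosaccharyltransferase then moves the finished chain onto asparagines of proteins that are entering the ER. It exists in 2 forms, one with the catalytic subunit STT3A, which sits at the translocon and works while the protein is being made, and one with STT3B, which also glycosylates sites that were skipped. Glucosidases and mannosidases trim the chain in the ER and Golgi, and Golgi transferases add branches and caps. In heart muscle, many ion channels, receptors and matrix proteins carry such chains.

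Levels were log2 values that the authors made by robust multiarray averaging, and the medians of the 6 arrays lay between 4.83 and 4.86. A gene passed the criterion when its fold change was over 1.5 with an unadjusted p under 0.05 in limma, the limits that the methods give. Over all 19505 genes this criterion was met by 623 lower genes (3.19%) and 610 higher genes (3.13%) in CKD, with a median log2 fold change of -0.0033. These totals depended on single arrays, with 946 lower and 1091 higher genes without CKD 1 and 957 lower genes without sham 1. After Benjamini-Hochberg adjustment in limma 2 genes remained at an adjusted p under 0.05, neither of them a member, while 1783 genes had an unadjusted p under 0.05. Of 10 cardiac muscle markers, 0 passed in either direction, and their mean log2 level was 17.69 to 18.04 in CKD hearts and 17.82 to 17.92 in sham hearts. Among them Pln, Myl2 and Tnnt2 lay within 19.84 to 19.95 on all arrays. That is near the top of the scale at 20, where differences may be compressed, so these markers could show little change. The labels do not say whether the hearts of one group came from separate litters, cages or operation days.

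Some of the genes that build and transfer the chain were lower in CKD hearts, and 2 genes of Golgi trimming and 1 transferase subunit were higher. Of the 46 members, 9 were lower (19.6%, against 3.19% of all genes) and 3 were higher (6.52%, against 3.13%), and 34 did not pass. The 9 lower members were Dpagt1, Alg14, Alg3 and Alg9 of chain assembly and Stt3a, Dad1, Ostc, Krtcap2 and Magt1 of the transferase. The 3 higher members were the transferase subunit Tmem258 and the Golgi mannosidases Man1a2 and Man2a1. In all 12 the levels of the 3 CKD hearts lay apart from those of the 3 sham hearts. The criterion was applied to these same levels, so that separation is not further support. The groups lay apart in 12 members in the lower and 5 in the higher direction, passed or not, where all genes gave 6.71% lower and 6.93% higher. None of the 46 reached an adjusted p under 0.05 over all genes in limma, and 15 had an unadjusted p under 0.05. The median log2 fold change over the members was -0.098, with 29 negative and 17 positive, and it was -0.15 without CKD 3 and -0.16 without sham 1.

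**Figure D1:**
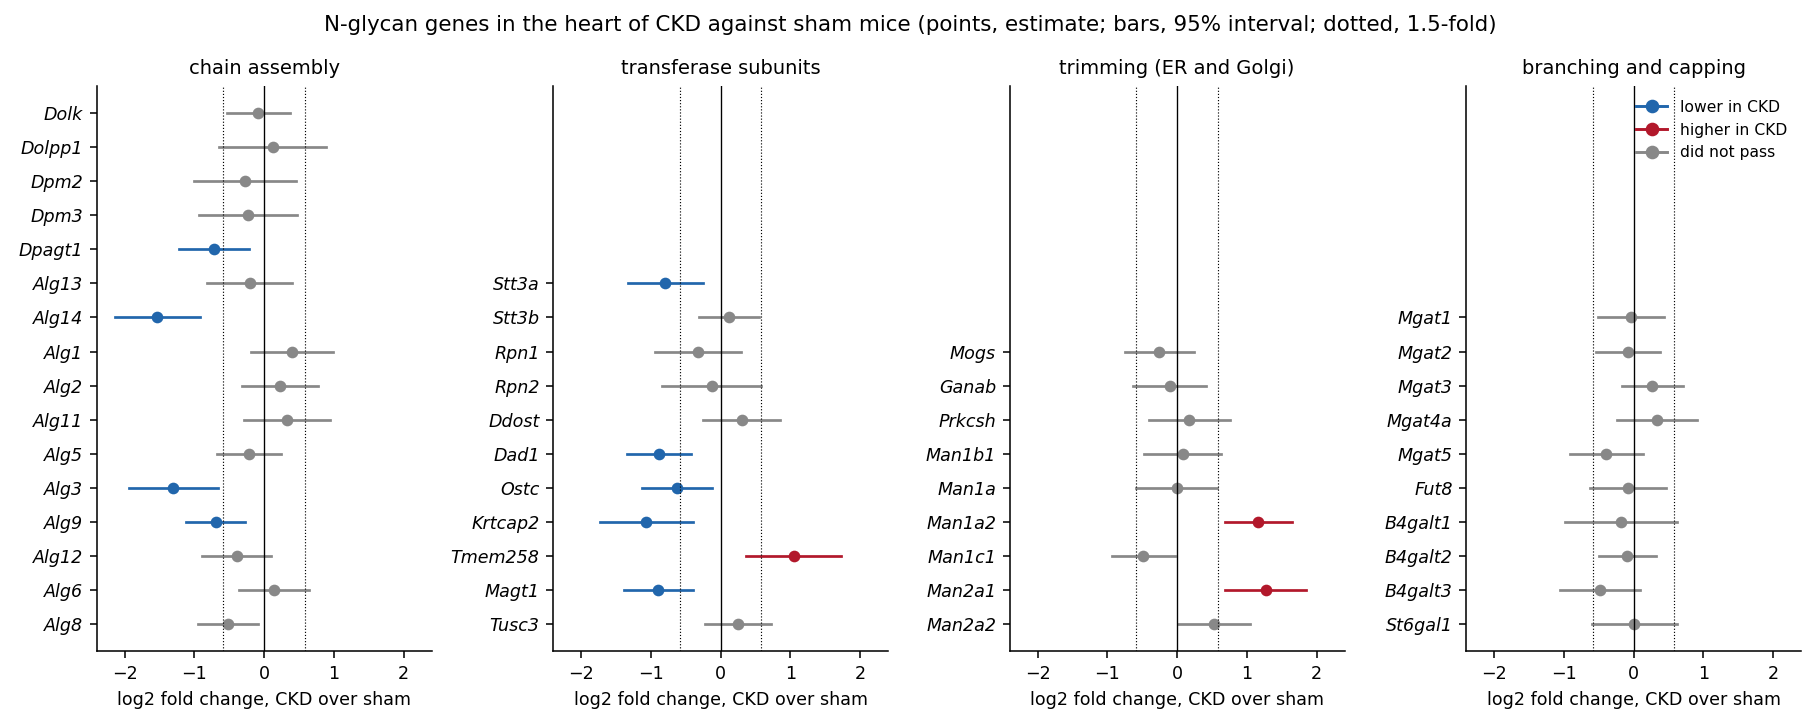
Log2 fold change, CKD over sham, of the 46 members in 4 panels by role, with points for limma's estimates, bars for 95% intervals and dotted lines at 1.5-fold. The lower genes (blue) lie in the assembly and transferase panels, from -1.53 for Alg14 to -0.62 for Ostc, and the higher genes (red) are Man2a1, Man1a2 and Tmem258.

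By stage, 4 of 16 assembly genes and 5 of 11 transferase subunits were lower, and 0 of 9 trimming genes and 0 of 10 branching and capping genes. Higher genes numbered 0 in assembly, 1 in the transferase, 2 in trimming and 0 in branching and capping. Over all genes 3.19% were lower and 3.13% higher, so a count of 0 in a stage of 9 or 10 genes is near that share. The median log2 fold changes were -0.22 for assembly, -0.32 for the transferase, 0.08 for trimming and -0.08 for branching and capping, beside -0.0033 for all genes. The assembly median was -0.081 without sham 3. The transferase median was -0.63 without CKD 1 and -0.093 without CKD 2. The trimming median was 0.20 without CKD 3 and 0.26 without sham 2. It changed sign without sham 1, at -0.068, and without sham 3, at -0.032.

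Since several members were lower together in both early stages, their promoter windows were read from RefSeq (GRCm38.p6, 250 bases before to 50 after each start). A window was at hand for 38 of the 46 members, and for 7 of the 9 lower and 2 of the 3 higher ones. The following stretches, the last 150 bases before the start, are shown because every lower member with a window had a CCAAT box in it. This choice was made after the motif counts were seen. The lower members shown are those with a box in this stretch, and Alg3, Alg9 and Krtcap2 had 0 there. Members that did not pass had boxes too, and the same stretch held 4 in Dolpp1, 3 in Ddost and 0 in Alg5. Capitals mark CCAAT or its reverse complement ATTGG, and each stretch is written 5′ to 3′ in the direction of its gene.
Alg14, chr3:121291590-121291739, plus strand: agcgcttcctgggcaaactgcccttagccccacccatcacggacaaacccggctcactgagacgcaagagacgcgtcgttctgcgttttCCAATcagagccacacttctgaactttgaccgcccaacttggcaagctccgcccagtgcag
Stt3a, chr9:36767623-36767772, minus strand: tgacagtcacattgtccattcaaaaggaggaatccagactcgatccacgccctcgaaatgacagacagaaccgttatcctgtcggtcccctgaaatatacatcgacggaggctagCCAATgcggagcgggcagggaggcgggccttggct
Dad1, chr14:54253930-54254079, minus strand: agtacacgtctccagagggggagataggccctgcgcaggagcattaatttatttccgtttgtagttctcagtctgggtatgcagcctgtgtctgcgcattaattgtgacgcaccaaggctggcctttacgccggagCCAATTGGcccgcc
Magt1, chrX:106011803-106011952, minus strand: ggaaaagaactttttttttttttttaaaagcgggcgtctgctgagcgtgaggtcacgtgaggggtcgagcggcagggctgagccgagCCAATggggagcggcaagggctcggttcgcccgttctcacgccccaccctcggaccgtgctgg
Man2a1, chr17:64601499-64601648, plus strand, with no such box: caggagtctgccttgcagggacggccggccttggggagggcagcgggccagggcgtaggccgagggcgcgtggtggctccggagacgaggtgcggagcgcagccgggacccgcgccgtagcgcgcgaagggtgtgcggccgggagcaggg

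Counted from the start base as 0, the box begins at -61 in Alg14, at -35 in Stt3a and at -63 in Magt1, whose full window has 4 of them. In Dad1 a pair of boxes on opposite strands overlaps between -14 and -7. Alg3 has one at -170, and in Alg9 and Krtcap2 the first matches lie at 13 and 17, after the start. Krtcap2 has windows for different starts, and its match lies in the window of a single start. CCAAT in either orientation was present in the windows of 7 of 7 lower members, 0 of 2 higher members and 22 of 38 members, beside 37.4% of all 32851 windows and 41.1% of the 27025 genes with a window. The other motifs, also searched on both strands, were less frequent among the lower members. The ER stress response element, CCAAT then 9 bases of any kind then CCACG, includes a CCAAT box and was found in 1 member, Alg12, and in 0.119% of all windows. The unfolded protein response element TGACGTGG was found in 0 members and 0.676% of windows, and the cyclic AMP response element TGACGTCA in 2 members and 1.79% of windows. The E-box CACGTG was found in 5 members and 7.15% of windows, with Magt1 as the lower member that had it. The NRF1 motif GCATGCGC was found in 2 members and 2.71% of windows, and the ETS motif CCGGAAG in 9 members, Tmem258 among them, and 8.86% of windows. The GC box GGGCGG was found in 29 members, 3 of them lower, and in 35.7% of windows. Some genes have several windows, and a member counted when any of its windows matched. By gene, the shares were 8.09% for the E-box, 3.05% for NRF1, 9.93% for ETS and 38.2% for the GC box. They were 0.137%, 0.714% and 2.03% for the ER stress, unfolded protein and cyclic AMP response elements. These matches describe letters in a window, and no binding was measured.

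Chain assembly starts with Dpagt1 (Entrez 13478), the enzyme that puts the first sugar phosphate on dolichol phosphate. Its log2 level was 9.35, 8.89 and 9.45 in the CKD hearts and 10.01, 9.71 and 10.12 in the sham hearts. Every CKD heart was below every sham heart. Dpagt1 averaged 9.23 ± 0.30 in CKD and 9.95 ± 0.21 in sham hearts (SD, n = 3 each), a log2 fold change of -0.72 (SE 0.22, limma adjusted p = 0.40). It no longer passed without CKD 2, at -0.55.

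Alg14 (Entrez 66789) anchors the enzyme that adds the next N-acetylglucosamine to the ER membrane, and it had the most negative log2 fold change of the 46 members. Its log2 level was 5.55, 5.50 and 6.29 in the CKD hearts and 6.95, 7.40 and 7.58 in the sham hearts. The highest CKD heart was CKD 3 and the lowest sham heart was sham 1, and they did not meet. Alg14 averaged 5.78 ± 0.44 in CKD and 7.31 ± 0.32 in sham hearts (SD, n = 3 each), which was 2.89-fold lower in CKD (log2 fold change -1.53, SE 0.27, limma adjusted p = 0.285). Alg13, the catalytic partner of Alg14, was at 4.73, 5.49 and 5.65 in CKD and 5.55, 5.71 and 5.24 in sham hearts, with CKD 1 below the rest and the others intermixed. Its log2 fold change was -0.21 (95% interval -0.82 to 0.40). The mannosyltransferases that act next on the cytosolic face, Alg1, Alg2 and Alg11, had positive log2 fold changes of 0.40, 0.23 and 0.32, and none passed. Alg1 passed without CKD 1, at 0.61, and with array weights, at 0.66.

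On the luminal face, Alg3 and Alg9 add mannoses to the growing chain. Alg3 (Entrez 208624) was at 4.68, 5.54 and 5.31 in the CKD hearts and 6.03, 6.67 and 6.73 in the sham hearts. CKD 1 was the lowest of the 6 and the groups stayed apart. The means were 5.18 ± 0.45 in CKD and 6.48 ± 0.39 in sham hearts (SD, n = 3 each), 2.46-fold lower in CKD (log2 fold change -1.30, SE 0.28, limma adjusted p = 0.336). Alg9 (Entrez 102580) was at 6.18, 6.51 and 6.35 in CKD and 7.00, 7.16 and 6.96 in sham hearts. Its spread within each group was small, with means of 6.35 ± 0.17 in CKD and 7.04 ± 0.11 in sham hearts (SD, n = 3 each), and its log2 fold change was -0.69 (SE 0.19, limma adjusted p = 0.346).

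Alg12, another luminal mannosyltransferase, and the glucosyltransferase Alg8 did not pass. Alg8 was at 5.60, 5.91 and 5.82 in CKD and 6.14, 6.31 and 6.43 in sham hearts, without overlap, and its log2 fold change of -0.52 (95% interval -0.95 to -0.088) was short of 1.5-fold. It passed without sham 1, at -0.59. Alg12 was at 6.06, 6.42 and 6.50 in CKD and 7.01, 6.64 and 6.52 in sham hearts, where CKD 3 and sham 3 nearly touched, with a log2 fold change of -0.40. Alg6, which adds the first glucose, had a log2 fold change of 0.14. Lower genes numbered 2 of the 5 luminal genes measured, whose median log2 fold change was -0.52, and 2 of the 6 cytosolic genes. Over all genes 3.19% were lower.

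The supply of dolichol and its sugar carriers held 0 passing genes among 5. That is near the share over all genes, 3.19% lower and 3.13% higher. Dolk, the kinase that makes dolichol phosphate, had a log2 fold change of -0.08, and Dolpp1, which recycles dolichol after transfer, had 0.12. Dpm2 and Dpm3, which hold the dolichol phosphate mannose synthase in the membrane, had -0.27 and -0.23. Dpm2 passed without sham 1, at -0.64, and was 0.06 without sham 3. Alg5, which makes dolichol phosphate glucose, had -0.22. In each of these 5 genes CKD and sham hearts overlapped, and over all genes the groups lay apart in 6.71% as lower and 6.93% as higher.

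The catalytic subunit of the transferase is Stt3a in one form and Stt3b in the other. Stt3a (Entrez 16430) was at 13.44, 13.83 and 13.78 in the CKD hearts and 14.91, 14.23 and 14.29 in the sham hearts. The groups were apart, with sham 1 well above the other sham hearts. Stt3a averaged 13.68 ± 0.21 in CKD and 14.48 ± 0.38 in sham hearts (SD, n = 3 each), a log2 fold change of -0.79 (SE 0.24, limma adjusted p = 0.387), and without sham 1 it was -0.58 and did not pass. Stt3b was at 11.43, 11.32 and 11.59 in CKD and 11.14, 11.40 and 11.45 in sham hearts, fully intermixed, with a log2 fold change of 0.12 (95% interval -0.31 to 0.55).

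Ostc and Krtcap2 are the small subunits that tie the STT3A form to the translocon. Krtcap2 (Entrez 66059) was at 14.95, 13.73 and 14.43 in the CKD hearts and 15.26, 15.51 and 15.53 in the sham hearts. The CKD hearts were spread more widely than the sham hearts, and CKD 1 came nearest to them. The means were 14.37 ± 0.61 in CKD and 15.43 ± 0.15 in sham hearts (SD, n = 3 each), 2.09-fold lower in CKD (log2 fold change -1.06, SE 0.30, limma adjusted p = 0.352). Ostc (Entrez 66357) was at 9.43, 9.51 and 9.03 in CKD and 9.67, 10.19 and 9.98 in sham hearts, apart by a narrow gap. Its log2 fold change of -0.62 (SE 0.22, limma adjusted p = 0.453) was close to the limit, and it did not pass without CKD 3 (-0.48), sham 2 (-0.50) or sham 3 (-0.61). All 3 measured subunits found in the STT3A form alone were thus lower, where 3.19% of all genes were, with a median log2 fold change of -0.79. Of these subunits, Krtcap2 was the one that passed whichever array was left out.

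Magt1 and Tusc3 are the alternative oxidoreductase subunits of the STT3B form, which can bind cysteines of the protein being glycosylated. Magt1 (Entrez 67075) was at 11.05, 11.25 and 11.16 in the CKD hearts and 12.42, 11.75 and 11.97 in the sham hearts. The CKD hearts were close together and all below the sham hearts. Magt1 averaged 11.15 ± 0.10 in CKD and 12.05 ± 0.34 in sham hearts (SD, n = 3 each), a log2 fold change of -0.89 (SE 0.22, limma adjusted p = 0.336). Tusc3 was at 10.09, 9.90 and 10.24 in CKD and 10.12, 9.71 and 9.65 in sham hearts, overlapping, with a log2 fold change of 0.25 (95% interval -0.22 to 0.72). Of the 3 subunits of the STT3B form alone, only Magt1 was lower, where 3.19% of all genes were lower. The median log2 fold change of the 3 was 0.12.

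Subunits shared by both forms went in different directions. Dad1 (Entrez 13135), a small membrane subunit, was at 18.30, 17.83 and 17.86 in the CKD hearts and 18.81, 19.01 and 18.81 in the sham hearts. All CKD hearts were below all sham hearts, and these levels are near the top of the scale at 20, where differences may be compressed. The means were 18.00 ± 0.26 in CKD and 18.88 ± 0.12 in sham hearts (SD, n = 3 each), a log2 fold change of -0.88 (SE 0.20, limma adjusted p = 0.336).

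Tmem258 (Entrez 69038), another small shared subunit, was higher in CKD hearts. It was at 12.82, 12.04 and 12.82 in CKD and 11.96, 11.54 and 11.03 in sham hearts. The gap between CKD 2 and sham 1 was narrow. The means were 12.56 ± 0.45 in CKD and 11.51 ± 0.47 in sham hearts (SD, n = 3 each), 2.07-fold higher in CKD (log2 fold change 1.05, SE 0.30, limma adjusted p = 0.373). Rpn1 and Rpn2, the ribophorins, and Ddost, a further shared subunit, did not pass, with log2 fold changes of -0.32, -0.13 and 0.30. Rpn1 was at 10.04, 8.97 and 9.26 in CKD against 9.77, 9.74 and 9.72 in sham hearts, so that CKD 1 was the highest and the other CKD hearts the lowest of the 6, and without CKD 1 it passed, at -0.63.

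**Figure D2:**
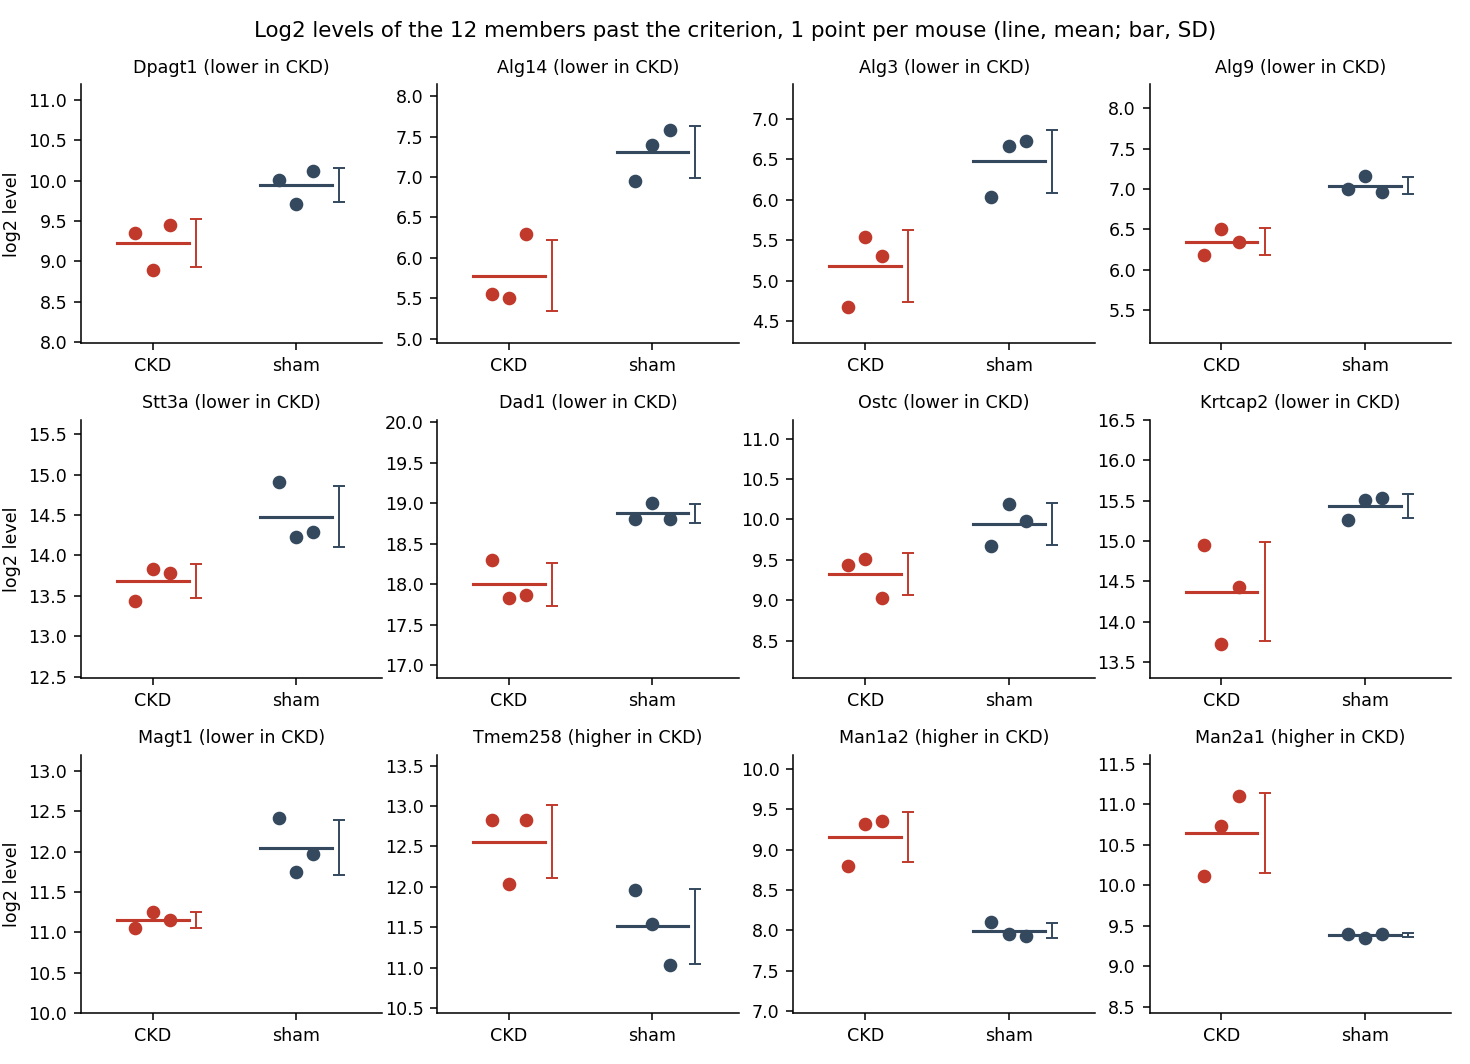
Log2 level of the 12 members past the criterion, 1 panel per gene, 1 point per mouse, with a line at the mean and a bar for the SD of 3 hearts (each axis has its own range of levels). CKD points lie below sham points in the 9 lower genes and above them in Tmem258, Man1a2 and Man2a1, and the groups do not overlap in any of the 12 panels. The 12 genes were chosen on these same levels.

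Trimming begins with the glucosidases, which did not pass. Mogs, which removes the outermost glucose, had a log2 fold change of -0.25, and Ganab and Prkcsh, the subunits of glucosidase II, had -0.11 and 0.17. Man1b1, a mannosidase of early trimming, had 0.08. CKD and sham hearts overlapped in all of these, and over all genes the groups lay apart in 6.71% as lower and 6.93% as higher.

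The Golgi class I mannosidases, which cut the chain back before branching, had 1 higher gene, Man1a2, where 3.13% of all genes were higher. Man1a2 (Entrez 17156) was at 8.80, 9.32 and 9.35 in the CKD hearts and 8.10, 7.95 and 7.93 in the sham hearts. The sham hearts were close together and all below the CKD hearts. Man1a2 averaged 9.16 ± 0.31 in CKD and 7.99 ± 0.093 in sham hearts (SD, n = 3 each), 2.24-fold higher in CKD (log2 fold change 1.16, SE 0.21, limma adjusted p = 0.285). Man1a was at 8.15, 8.83 and 9.05 in CKD and 8.56, 8.86 and 8.63 in sham hearts, intermixed, and its log2 fold change was -0.0067 (95% interval -0.58 to 0.57). Man1c1 was at 8.46, 8.32 and 8.42 in CKD and 8.65, 9.17 and 8.84 in sham hearts, apart, but its log2 fold change of -0.49 (95% interval -0.94 to -0.034) was short of 1.5-fold. It passed without sham 1, at -0.61.

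Mannosidase II removes the last mannoses that stand in the way of complex chains. Man2a1 (Entrez 17158) was at 10.12, 10.73 and 11.10 in the CKD hearts and 9.40, 9.35 and 9.40 in the sham hearts. The sham hearts were almost equal and CKD 1 was nearest to them. The means were 10.65 ± 0.49 in CKD and 9.38 ± 0.029 in sham hearts (SD, n = 3 each), 2.41-fold higher in CKD (log2 fold change 1.27, SE 0.26, limma adjusted p = 0.330). Its relative Man2a2 was at 8.39, 8.24 and 8.60 in CKD and 7.48, 8.12 and 8.05 in sham hearts, without overlap. Its log2 fold change was 0.53 (95% interval 0.011 to 1.04), short of 1.5-fold, and it passed without CKD 2 (0.61) or without sham 2 (0.65).

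Branching and capping held no passing gene among the 10 measured, near the share over all genes, 3.19% lower and 3.13% higher. Mgat1 and Mgat2, which start the antennae of complex chains, had log2 fold changes of -0.037 and -0.08. Of the genes for further branches, Mgat4a had 0.33 (95% interval -0.24 to 0.90), Mgat5 had -0.39 and Mgat3 had 0.27, the last at a dim level of 3.13 ± 0.19 in CKD and 2.86 ± 0.13 in sham hearts (SD, n = 3 each). Fut8, which adds the core fucose, had -0.08 and St6gal1, which adds terminal sialic acid, had 0.0067. The galactosyltransferases B4galt1, B4galt2 and B4galt3 had -0.18, -0.09 and -0.48. B4galt3 was at 6.20, 5.43 and 5.81 in CKD and 5.96, 6.43 and 6.49 in sham hearts, where CKD 1 lay among the sham hearts, and it passed without CKD 1 (-0.67) or without sham 1 (-0.65). Mgat5 passed without sham 2, at -0.59, and B4galt1 without CKD 1, at -0.61.

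Related genes, 4 pairs of alternative enzymes or subunits and the subunits of the Alg13 and Alg14 enzyme, were compared within each array. The pairs were chosen with earlier results of these data known, so the intervals and p-values below describe them and are not independent evidence that one gene changed more than the other. The difference between the log2 fold changes was -0.91 for Stt3a minus Stt3b (95% interval -1.87 to 0.046) and -1.32 for Alg14 minus Alg13 (-2.35 to -0.29). It was -1.14 for Magt1 minus Tusc3 (-1.60 to -0.69) and 1.17 for Man1a2 minus Man1a (0.71 to 1.63). In these 4 pairs the within-array differences of CKD and sham hearts did not overlap, and the two-sided exact permutation test over 3 against 3 arrays gave p = 0.1, the smallest it can give, with 0.125 after Benjamini-Hochberg adjustment over 5 pairs. Man2a1 minus Man2a2 was 0.74 (-0.18 to 1.66) with overlapping groups and an exact permutation p of 0.2, also 0.2 after adjustment. With this number of arrays no pair could reach a p under 0.05.

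**Figure D3:**
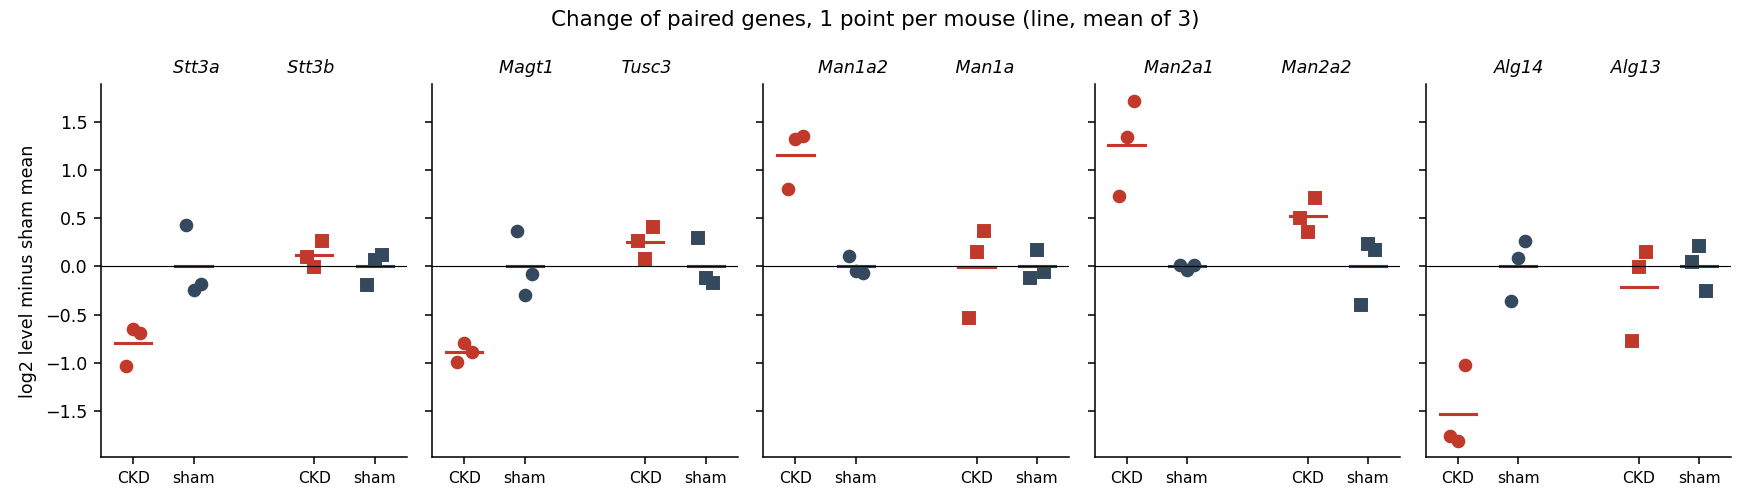
Log2 level minus the gene's mean over sham hearts for 5 pairs of related genes, 1 point per mouse with a line at the mean of 3, CKD left of sham for each gene. Stt3a, Magt1 and Alg14 lie lower in CKD while the CKD and sham points of Stt3b, Tusc3 and Alg13 overlap, and Man1a2 lies higher while Man1a does not, with its points on both sides of 0.

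Genes around the pathway were read in 6 further lists of 114 measured genes in all. Over all genes 3.19% were lower and 3.13% higher. Among 18 targets of the unfolded protein response, the program that raises ER capacity when proteins misfold, 7 were lower and 0 higher (median log2 fold change -0.48). They included Hspa5 (-1.15) and Hsp90b1 (-0.91), the main ER chaperones of the HSP70 and HSP90 families, Herpud1 (-0.86), which serves ER-associated degradation, and Asns (-0.93), which makes asparagine. Among 26 genes of sugar nucleotide supply and transport, 3 were lower and 0 higher (median 0.0083). These were Uap1 (-1.05), which makes UDP-N-acetylglucosamine, Gmppa (-1.03), a regulator of GDP-mannose synthesis, and Mpi (-0.71), which makes mannose 6-phosphate. Among 19 genes of glycoprotein folding and quality control, 2 were lower, the lectins Lman2 (-0.94) and Mlec (-0.67), and 0 higher (median -0.02). Among 20 other terminal glycosyltransferases, St3gal1 was lower (-0.78) and B3gnt2 higher (0.68), with a median of -0.097. That is 5% each way, near the share over all genes. Of the passing genes named here, CKD and sham hearts overlapped in Asns, Uap1 and St3gal1 and lay apart in the others. Among the 18 unfolded protein response targets they lay apart in 3, all lower, where all genes gave 6.71% lower. Of 25 genes of the translocon and signal sequence handling 0 passed (median -0.027), and of 6 genes of dolichol supply and other early steps, Ost4 of the transferase among them, 0 passed (median -0.11).

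The median deviation of the 16 assembly genes from their means over all arrays was -0.21, -0.09 and -0.14 in the CKD hearts and 0.18, 0.14 and 0.20 in the sham hearts, without overlap. For the 11 transferase subunits it was 0.042, -0.25 and -0.30 in the CKD hearts and 0.17, 0.15 and 0.21 in the sham hearts, with CKD 1 nearest to sham. For the trimming genes it was 0.10, 0.15 and 0.023 in the CKD hearts and -0.12, 0.063 and -0.05 in the sham hearts, overlapping. Branching and capping overlapped too. The unfolded protein response targets gave 0.18, -0.66 and -0.24 in CKD and 0.077, 0.34 and 0.41 in sham hearts, so CKD 1 lay above sham 1.

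Markers of other heart cells moved with the groups in part, where 3.19% of all genes were lower and 3.13% higher. Atrial markers, of which 4 of 8 were higher and 0 lower, had a mean log2 level of 8.63 to 11.53 in CKD hearts, with CKD 3 the highest, and 6.51 to 8.97 in sham hearts, with sham 1 the highest. The 4 were Bmp10 (log2 fold change 5.14), Myl4 (4.30), Sln (3.31) and Tbx5 (0.73), and only Nppa was negative (-0.52). Macrophage markers, of which 3 of 9 were lower and 0 higher, ranged over 8.54 to 9.74 in CKD and 8.94 to 10.41 in sham hearts, with CKD 1 above sham 1. B and plasma cell markers, of which 1 of 7 was higher, ranged over 3.94 to 4.52 in CKD and 3.41 to 3.82 in sham hearts. These mean levels lay below the array medians, and dim genes could not be set apart from background. Smooth muscle and pericyte markers, of which 2 of 8 were higher, ranged over 10.86 to 11.33 in CKD and 10.34 to 10.66 in sham hearts, without overlap. Adipocyte markers had positive log2 fold changes in 8 of 8 (median 0.97), 2 of which passed, and ranged over 6.56 to 7.82 in CKD and 5.86 to 6.62 in sham hearts. The 2 were Car3 and Ucp1, the latter at dim levels of 2.21 to 4.16. Of 7 endothelial markers 0 passed, but all 7 log2 fold changes were negative (median -0.45), with a mean level of 11.52 to 12.20 in CKD and 11.97 to 12.31 in sham hearts. In fibroblast and T cell markers 0 of 7 and 0 of 6 passed (medians 0.32 and 0.12), and 1 of 2 red blood cell markers was higher. The part of these cells in the members' changes was not tested, and in whole tissue fewer cells of a type and less RNA per cell cannot be told apart.

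**Figure D4:**
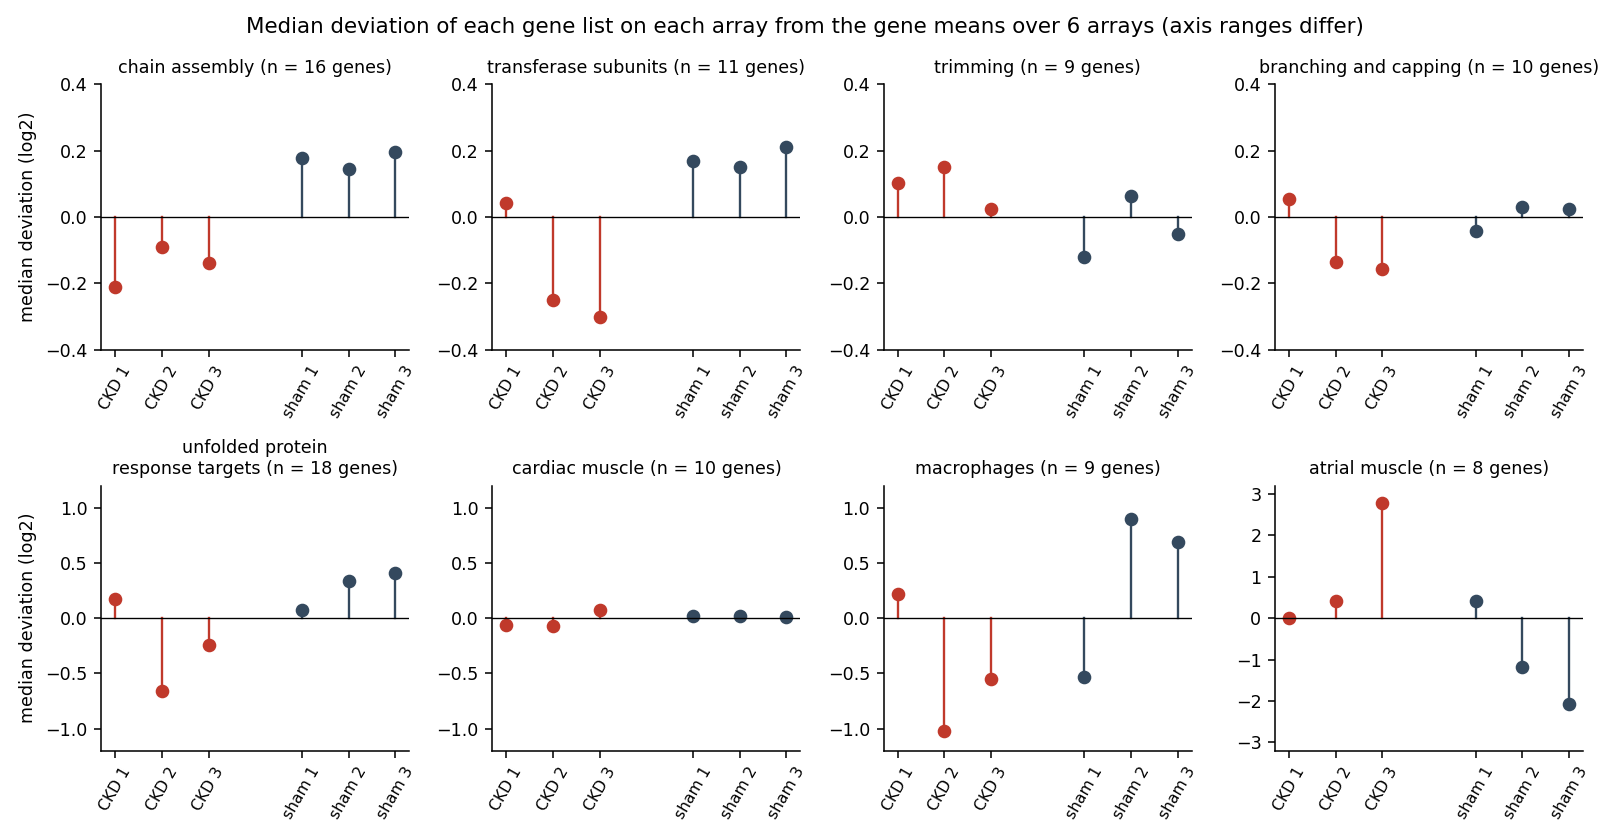
Median deviation (log2) of the genes of 8 lists on each array from their means over the 6 arrays, 1 stem per heart, with axis ranges that differ between panels. Chain assembly is below 0 in the 3 CKD hearts and above 0 in the 3 sham hearts, while in macrophages and unfolded protein response targets CKD 1 lies above sham 1 and in atrial muscle CKD 3 stands out at 2.77.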

How the data were processed

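Log2 expression levels were deposited by the authors for 6 Clariom S arrays, made from 250 ng of heart RNA each by robust multiarray averaging (named RMA in the submitters' notes, with no version), which corrects background, equalises the distributions of the arrays and summarises each probe set. The levels have no detection calls, so dim genes could not be set apart from background, and the number of arrays limits the precision. Groups came from the sample titles. Of 22206 probe sets, 19572 had 1 gene symbol in the platform annotation and 2634 had none. The brightest probe set by mean level was kept for each of 19505 genes, and no member had several.

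A linear model without covariates was fitted to all genes with limma 3.58.1 (lmFit, then eBayes; R 4.3.3), with Benjamini-Hochberg adjustment over all genes beside the unadjusted p of the criterion. Gene pairs were compared by an exact permutation test. The fit was tested on simulated data. Named were all members past the criterion, the 2 members of each stage nearest to it by p, the genes of each pair and, in each further list, at most 4 passing genes by p. Members given by value only complete their stage. The members, lists, pairs and motifs were chosen with earlier results of these data known, so counts and medians over lists carry no test, and the tests of the pairs are descriptive. Plots were drawn with matplotlib 3.10.9. Alternatives covered other tests, array weights, normalization again, filters on dim genes, the mean of probe sets, a replicate block and leaving out each array.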

Additional observations from a re-analysis of the deposited data

How the results depend on the processing

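At a fold change over 2 the lower members numbered 3 (Alg14, Alg3 and Krtcap2) and the higher members also 3 (Tmem258, Man1a2 and Man2a1). At that limit the lower members were thus no more numerous than the higher ones, and no share over all genes was counted for it. With Benjamini-Hochberg adjustment over all genes 0 members were lower and 0 higher in limma. Of the 12 members past the criterion, 9 passed in every one of the 16 other settings that kept its limits, and Stt3a, Dpagt1 and Ostc failed only when single arrays were left out. Leaving out each array in turn gave 8 to 12 lower and 3 to 4 higher members. Over all genes the same settings gave 497 to 957 lower and 472 to 1091 higher genes. Median log2 fold changes were then -0.16 to -0.078 for all members and -0.28 to -0.081 for assembly. They were -0.63 to -0.093 for the transferase and -0.068 to 0.26 for trimming. Alg13 ranged from -0.39 to 0.07 and Man1a from -0.19 to 0.26, and Man1a was 0.11 with array weights. Over all genes, array weights gave 1028 lower and 1023 higher genes and the methods' t-test 318 and 307, beside 623 and 610. The cause of these shifts was not tested. The paper's figure legend speaks of pairs of sham and CKD mice, and the labels do not say which hearts formed a pair. Between CKD and sham hearts of equal replicate number, the deviations from group means had correlations of -0.184, -0.0251 and -0.187. Deviations within a group of 3 hearts depend on one another, so these values cannot decide whether hearts were paired. With the replicate number as a block 9 members were lower and 3 higher, beside 599 lower and 602 higher genes over all genes.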
